A study of Mus musculus with 9 samples.

Results

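Matricellular genes code for secreted proteins that sit in the extracellular matrix and act on cells rather than serving mainly as its scaffold. The 9 described here were taken by name from the deposited count table: the tenascin genes Tnn, Tnc and Tnxb, the thrombospondin genes Thbs1, Thbs2 and Thbs3, and Postn, Fn1 and Sparc. Fn1 is counted among them here, although its product, fibronectin, also builds a fibrillar network of its own. All 9 were found, each under 1 identifier, among the 24186 genes of the table, and all 9 were among the 15098 genes with enough counts to be tested. The cells were stromal cells of the bone marrow, from adult mice (C57Bl/6) carrying the irtTA-GBD*-TAg transgene, whose large T antigen is switched on by dexamethasone and doxycycline. Cells immortalised in this way were cloned, and every group spent 3 days free of both inducers before its poly(A) RNA was sequenced. The 9 libraries fall into 3 groups of 3: adipogenic progenitors exposed for 3 days to 10 ng/ml of IFNγ (interferon-γ), progenitors with osteogenic potential, and adipogenic progenitors without IFNγ. Libraries carry the number 4, 5 or 6 in their label. The series names them biological replicates, but does not say whether a number stands for a clone, a culture or an animal, so the p values speak only of the spread between these samples, which may be technical.

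Tenascins, thrombospondins, periostin, fibronectin and SPARC bind collagen fibrils, growth factors and cell surface receptors, above all integrins, and change how firmly cells hold to their matrix. Many of them are scarce in resting tissue and abundant in wounds, developing bone and the periosteum. Fibronectin also builds a fibrillar network of its own, onto which collagen and other matricellular proteins are laid. IFNγ, the cytokine of T and natural killer cells, is known to restrain matrix production by fibroblasts.

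The libraries held 27440089 to 39251602 counts. Levels are given as CPM, counts scaled by the TMM method to a library of 1000000. With 0 counts of a gene, the limit (3 counts) was 0.0749 to 0.113 CPM, depending on the library. Of the adipocyte markers, Pparg averaged 25.4, 9.19 and 36.0 CPM in treated adipogenic, osteogenic and untreated adipogenic libraries. The means of Fabp4 and Lpl were also lowest in osteogenic libraries, but that of Cebpa was not, at 17.0, 28.2 and 30.9 CPM in the same order. Single libraries overlapped for Pparg and Fabp4. Pparg had 8.93 CPM in treated and 13.2 CPM in osteogenic library 4. Fabp4 had 22.2, 33.9 and 21.5 CPM in treated, osteogenic and untreated library 4, and 171, 9.09 and 234 CPM in library 6. Plin1 and Adipoq, which mark mature fat cells, reached at most 0.0564 and 0.200 CPM in any library. Sp7, a transcription factor of bone-forming cells, averaged 0.134, 100.2 and 0.182 CPM in the same order, and Alpl averaged 8.82, 340 and 11.0 CPM. Ptprc, a marker of blood cells, reached at most 0.0998 CPM and Pecam1, of endothelium, at most 0.171 CPM. Other markers were higher: Kdr, of endothelium, reached 53.9 CPM and Cd68, of blood cells, 18.6 CPM. Kdr gave most of the sum of 5 endothelium markers. Their sum ran from 22.2 to 54.4 CPM in treated, 1.67 to 2.63 CPM in osteogenic and 9.19 to 17.8 CPM in untreated libraries. The 7 blood cell markers summed to 7.13 to 13.5, 5.41 to 7.45 and 7.35 to 21.8 CPM in the same order. The part of such cells in the results was not tested. All libraries are bulk samples, in which fewer cells of a type and less RNA per cell cannot be told apart.

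The 9 genes together took 1.14 ± 0.119% of all counts in IFNγ-treated adipogenic libraries, 3.80 ± 0.182% in osteogenic libraries and 2.28 ± 0.233% in untreated adipogenic libraries (SD, n = 3 each). The treated libraries ran from 1.01 to 1.23%, the osteogenic ones from 3.61 to 3.98% and the untreated ones from 2.09 to 2.54%, so that the 3 groups did not overlap. Other measures also differed between some of the groups. The 3 tendon markers summed to 16.1 to 23.4 CPM in treated, 79.6 to 103 CPM in osteogenic and 23.9 to 45.9 CPM in untreated libraries, with Tnmd, which defines tenocytes, at most at 0.706 CPM. The 4 cartilage markers summed to 53.3 to 84.0 CPM in treated, 227 to 287 CPM in osteogenic and 35.7 to 217 CPM in untreated libraries. Acan was at most at 0.602 CPM, and Col2a1 and Col10a1 gave most of the osteogenic sum, with means of 138 and 105 CPM. Sox9 instead was highest in treated libraries, at a mean of 36.2 CPM, with 20.4 CPM in osteogenic and 17.3 CPM in untreated ones. Mitochondrial transcripts took 0.660 to 0.706% of counts in treated, 0.945 to 1.06% in osteogenic and 0.930 to 1.38% in untreated libraries. The part of these measures in the results was not tested. To compare genes with each other, levels were divided by exonic length. On this scale of CPM per kb the genes formed tiers that were the same in all 9 libraries. Fn1, Thbs1 and Sparc held ranks 1 to 3, Tnc, Thbs2 and Postn held ranks 4 to 6, and Tnn, Tnxb and Thbs3 held ranks 7 to 9. The top tier made up 78.6 to 90.5% of the summed CPM per kb of the 9 genes in treated libraries, 82.0 to 91.2% in osteogenic ones and 88.3 to 92.1% in untreated ones.

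**Figure D1:**
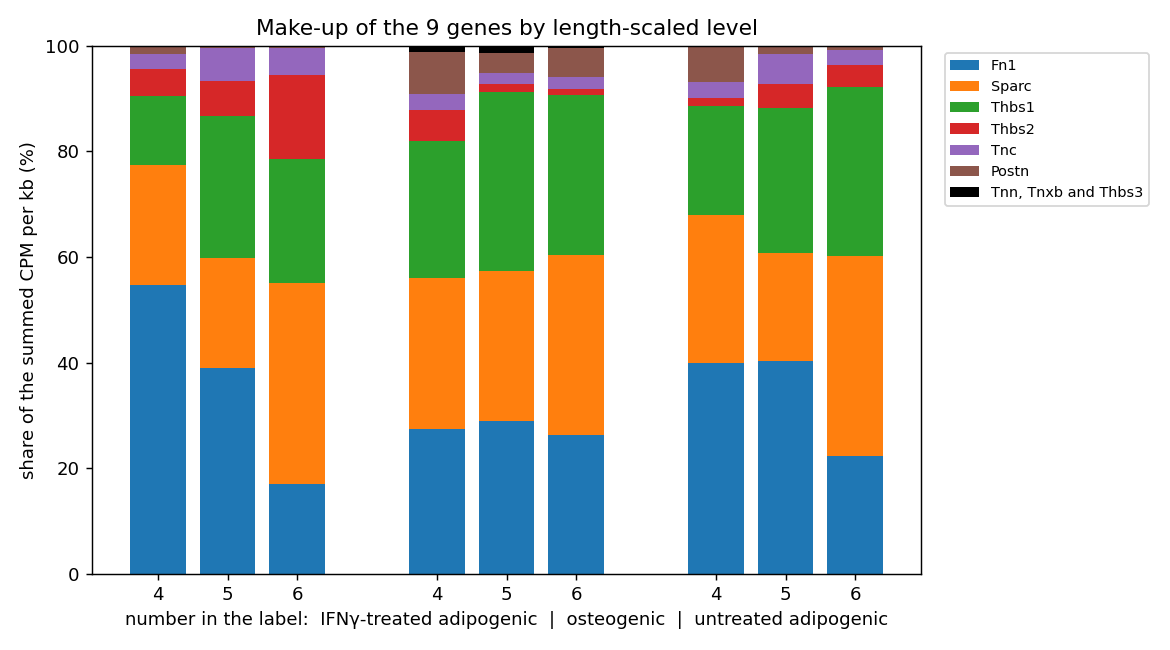
Share of each gene in the summed CPM per kb of the 9 genes (y axis, percent), 1 bar per library, with the number in its label below. Fn1, Thbs1 and Sparc fill at least 78.6% of each bar, and Fn1 takes 54.8% in treated library 4 and 17.0% in treated library 6. Postn is thicker in the osteogenic bars (3.79 to 7.95%) than in the treated ones (0.289 to 1.40%). In the untreated bars Postn runs from 0.654 to 6.75% and overlaps with both.

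Set against osteogenic progenitors, IFNγ-treated adipogenic progenitors had less RNA of most of these genes. These groups differ both in the kind of progenitor and in IFNγ, and no osteogenic library was treated. In this comparison the parts of the kind of progenitor and of IFNγ cannot be told apart. Tnn, Postn, Thbs3, Thbs1, Sparc and Fn1 were lower and Tnxb was higher, so that 7 of 9 passed edgeR's quasi-likelihood test at an adjusted p of 0.05, Benjamini-Hochberg over all genes. Among all genes tested 16.7% passed in this comparison, 7.52% lower and 9.20% higher. The median log2 fold change was −1.96 over the 9 genes and 0.03 over all genes tested. Libraries of these groups did not overlap for 8 of the 9 genes, against 38.5% of all genes; 7 were lower (18.8% of all genes) and Tnxb was higher (19.7%). The fold change was negative for 7 of 9, and for 47.8% of all genes.

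Osteogenic progenitors had higher mean levels than untreated adipogenic progenitors for 8 of the 9 genes, all but Tnxb. Tnn and Thbs3 were higher and passed, 2 of 9, where 5.17% of all genes passed, 1.98% of all higher and 3.19% lower. A positive log2 fold change was found for 8 of 9 and a negative one for 1 (51.4% of all genes), with a median of 0.96 against −0.02 over all genes. Of the 9, 6 had an unadjusted p under 0.05. The share of all genes at that unadjusted p is not given here, so no excess can be read from this count. The libraries did not overlap for 7 genes, where 31.0% of all genes did not overlap; 6 were higher (15.0% of all genes) and Tnxb was lower (15.9%). Both comparisons use the same osteogenic libraries, so they are not independent.

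With IFNγ, Postn, Thbs1, Sparc and Fn1 had lower levels than without it in each of the 3 same-numbered pairs of adipogenic libraries. So did Tnc and Thbs3, so that 6 of 9 were lower in all pairs, against 29.7% of all genes. In pair 6, however, Tnc and Thbs3 were nearly level, at 0.999 and 0.983 of the untreated value. By group alone none of the 9 genes passed edgeR's quasi-likelihood test, where 2.26% of all genes passed, 2.01% of all higher and 0.245% lower. Of the 9, 4 had an unadjusted p under 0.05, all lower, DESeq2 called 3 lower and limma-voom called 0. Shares of all genes by these criteria are not given here, so no excess can be read from these counts. The all-gene count with DESeq2 is in the closing section. Without overlap were 3 of 9, all lower, against 7.17% of all genes lower, 10.2% higher and 17.4% in either direction. The log2 fold change was negative for 6 of 9 (52.7% of all genes), with a median of −0.71 against −0.02 over all genes. Adipogenic libraries that share a number deviated together from their group means over all genes, with correlations of 0.754 to 0.760 between treated and untreated. With the number as a replicate block, 4 of 9 genes fell and none rose, where 10.8% of all genes passed, 4.27% of all lower and 6.53% higher. The count under the block was 2 without number 4 (Thbs1 and Fn1), 1 without number 5 (Thbs1) and 3 without number 6 (Tnc, Postn and Sparc), fits chosen after the data were seen.

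**Figure D2:**
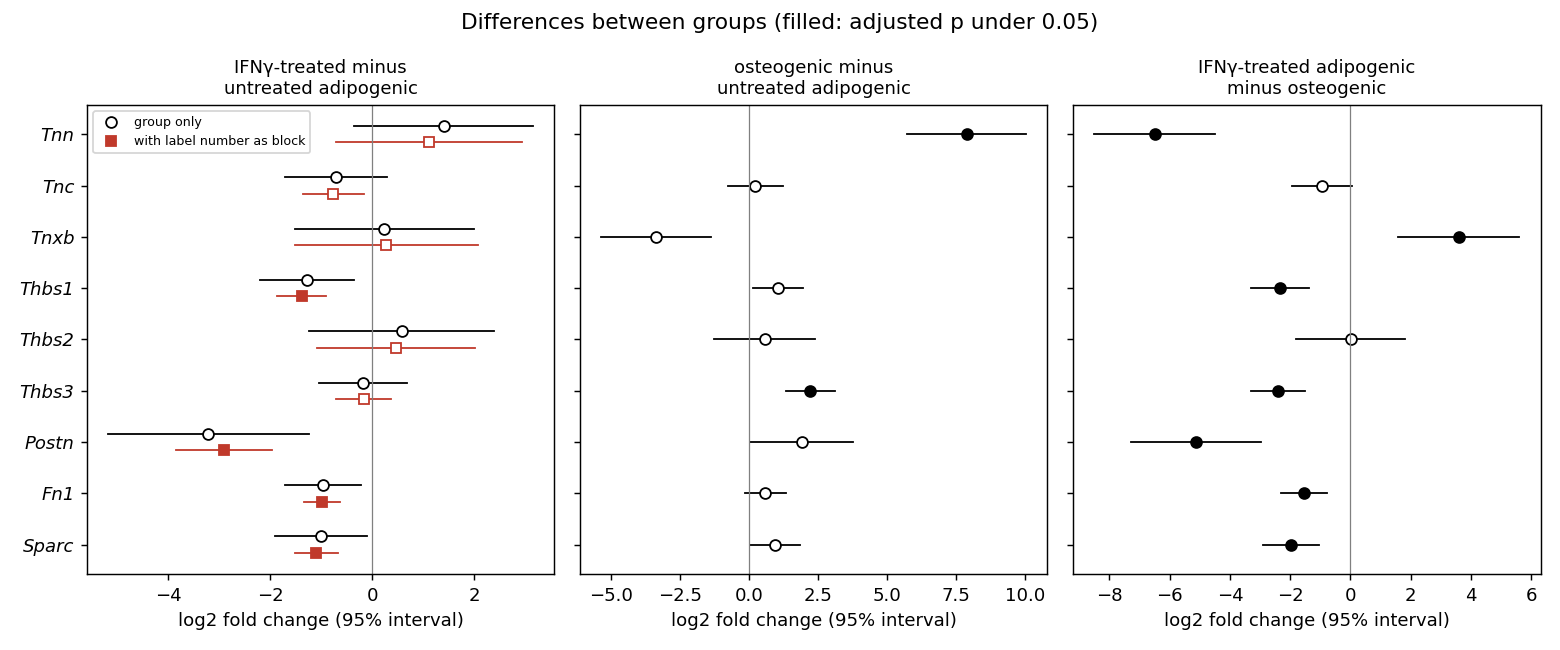
Log2 fold change of each gene (x axis, with its 95% interval) in the 3 comparisons, positive where the group named first is higher; filled symbols passed an adjusted p of 0.05, and squares in the left panel use the number of the adipogenic library as a block. The block narrows the intervals of Thbs1, Postn, Fn1 and Sparc at nearly the same estimate, and Tnxb lies opposite to Tnn in the comparisons with osteogenic libraries.

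Tnn codes for tenascin-N, also called tenascin-W, a tenascin of developing bone, periosteum and smooth muscle. It had 1.63, 1.35 and 7.35 CPM in IFNγ-treated adipogenic libraries 4, 5 and 6, 368, 461 and 103 CPM in osteogenic libraries, and 1.10, 1.31 and 1.50 CPM in untreated adipogenic libraries. Every osteogenic library was thus far above every adipogenic one, and the highest adipogenic value came from treated library 6. Osteogenic exceeded untreated adipogenic progenitors by a log2 fold change of 7.89 ± 0.94 (SE, edgeR adjusted p = 0.00594), higher in 3 of 3 libraries. The pooled counts were 28069 in osteogenic and 145 in untreated adipogenic libraries, a ratio of 225 (exact 95% interval 191 to 267, for counting error alone). IFNγ-treated adipogenic progenitors lay below osteogenic ones by a log2 fold change of −6.49 ± 0.87 (edgeR adjusted p = 0.0026), which became −7.70 without treated library 6. Between treated and untreated adipogenic libraries the fold change was 1.40 ± 0.77 (edgeR adjusted p = 0.48), and 0.20 without treated library 6. Within the osteogenic group the highest level was 4.49 times the lowest, where the median gene had a ratio of 1.32. The 5 smooth muscle markers, Acta2, Tagln, Myh11, Cnn1 and Des, of which Acta2 and Tagln gave nearly all, summed to 919 to 1478 CPM in treated, 6317 to 17110 CPM in osteogenic and 2009 to 4266 CPM in untreated libraries. Within the osteogenic group their sum was highest in library 6, where Tnn was lowest, and Des averaged 3.18 CPM in treated, 2.43 CPM in osteogenic and 9.33 CPM in untreated libraries. Of the 5, Myh11, which defines mature smooth muscle, reached at most 1.35 CPM in any library, and the part of such cells in the results was not tested.

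The stretch of 250 bases before a RefSeq start of Tnn (chr1:160153576-160153825, minus strand), of Postn (chr3:54360857-54361106, plus strand) and of Tnxb (chr17:34670285-34670534, plus strand), all of build GRCm38.p6, is shown 5′ to 3′ on the strand of the gene because these genes had the largest log2 fold changes among the 9. Capitals mark matches, on either strand, to any of 4 motifs that were searched: TATAAA, the AP-1 type TGANTCA, the GC box GGGCGG and the STAT type TTCNNNGAA.
Tnn: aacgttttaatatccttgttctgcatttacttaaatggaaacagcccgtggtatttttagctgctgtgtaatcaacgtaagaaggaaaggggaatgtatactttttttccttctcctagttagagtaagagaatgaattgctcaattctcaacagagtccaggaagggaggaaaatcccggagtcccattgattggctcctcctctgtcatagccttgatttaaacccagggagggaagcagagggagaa
Postn: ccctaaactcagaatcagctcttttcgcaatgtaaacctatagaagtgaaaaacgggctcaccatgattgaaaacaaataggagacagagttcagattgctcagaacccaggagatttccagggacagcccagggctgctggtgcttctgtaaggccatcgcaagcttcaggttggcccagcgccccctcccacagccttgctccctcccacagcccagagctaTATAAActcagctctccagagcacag
Tnxb: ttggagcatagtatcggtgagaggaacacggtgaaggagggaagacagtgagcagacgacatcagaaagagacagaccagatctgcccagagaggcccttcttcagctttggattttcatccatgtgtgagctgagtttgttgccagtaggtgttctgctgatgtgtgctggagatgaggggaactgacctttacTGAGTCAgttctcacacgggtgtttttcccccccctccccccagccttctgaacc
The printed Postn stretch, chosen of 2 in the RefSeq set because it holds a match, has TATAAA at 26 to 21 bases before the start, and 12.4% of all 32851 such stretches of the RefSeq set hold that motif. The stretch before the other Postn start (chr3:54359017-54359266) holds none of the 4 motifs. The Tnxb stretch holds TGAGTCA, a match to TGANTCA, at 55 to 49 bases before the start, a motif in 6.75% of all stretches. None of the 4 motifs was found in the Tnn stretch. Of the 9 genes 7 had a stretch in the RefSeq set, and Postn and Tnc had more than one. TTCNNNGAA, which 7.02% of all stretches hold, was in none of those of the 7 genes, and GGGCGG, which 32.7% hold, was in those of Tnc and Thbs3. Stretches of Tnc and Thbs2 also held TATAAA, farther from the start. A match is a description of the letters and not a binding site, and no match speaks only of this window.

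Tnc codes for tenascin-C, which is induced in wounds, tendons and around condensing bone and loosens the hold of cells on fibronectin. Its levels were 303, 828 and 844 CPM in IFNγ-treated adipogenic libraries 4, 5 and 6, 1456, 1133 and 1206 CPM in osteogenic libraries, and 726, 1659 and 845 CPM in untreated adipogenic libraries. Treated library 4 was the lowest and untreated library 5 the highest of all 9. Treated libraries lay below all osteogenic ones, but the difference did not pass (log2 fold change −0.94 ± 0.44, edgeR adjusted p = 0.179). Osteogenic and untreated adipogenic libraries overlapped (0.23 ± 0.43, edgeR adjusted p = 0.792, 95% interval −0.76 to 1.23). Treated libraries had 0.418, 0.499 and 0.999 of the untreated level in pairs 4, 5 and 6, so that pair 6 showed hardly any difference. With the block the log2 fold change was −0.76 ± 0.25 (edgeR adjusted p = 0.104).

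Tnxb codes for tenascin-X, a component of collagen-rich skin and tendon whose loss causes a form of Ehlers-Danlos syndrome in people. It had 3.52, 4.54 and 3.46 CPM in IFNγ-treated adipogenic libraries, 0.0907, 0.828 and 0.0565 CPM in osteogenic libraries, and 3.04, 2.33 and 4.37 CPM in untreated adipogenic libraries. Osteogenic libraries 4 and 6 held 3 and 2 counts of it and library 5 held 22, so all osteogenic values were below all adipogenic ones. Treated adipogenic exceeded osteogenic progenitors by a log2 fold change of 3.59 ± 0.88 (edgeR adjusted p = 0.0277), higher in 3 of 3 libraries. The ratio of pooled counts, 402 against 27, was 13.5 (exact 95% interval 9.17 to 20.8, for counting error alone). That call was lost with only the 6 libraries compared (adjusted p = 0.0521) and without treated library 4, 5 or 6 or osteogenic library 4 or 6 (0.0502 to 0.0848). Without osteogenic library 5 it held, and the fold change was 5.65. For osteogenic against untreated adipogenic progenitors it was −3.35 ± 0.87 (edgeR adjusted p = 0.0658). It passed with DESeq2 (adjusted p = 0.000419), with limma-voom (adjusted p = 0.021) and without osteogenic library 5 (−5.40, adjusted p = 0.0113). The treated and untreated adipogenic libraries overlapped (0.24 ± 0.77, edgeR adjusted p = 0.938).

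**Figure D3:**
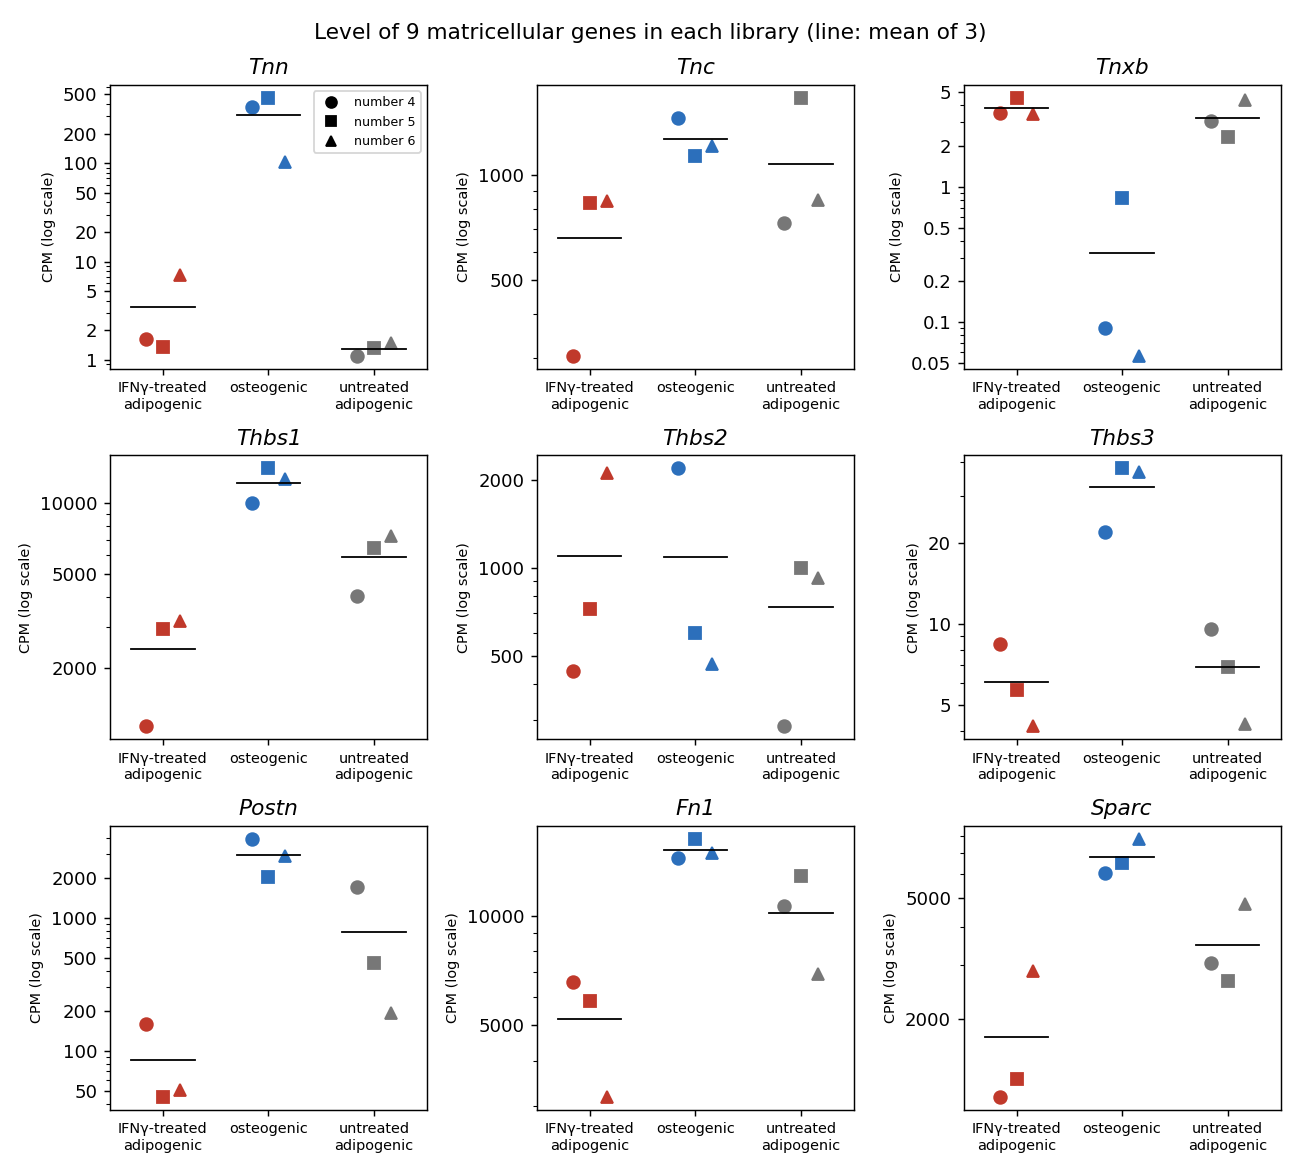
CPM of each gene in each library on log axes (1 panel per gene), with IFNγ-treated adipogenic libraries in red, osteogenic in blue and untreated adipogenic in grey; symbols give the number in the label and lines the mean of 3. For Thbs1 the 3 groups are apart, with treated libraries at 1138 to 3185 CPM, osteogenic at 9976 to 13985 CPM and untreated at 4023 to 7220 CPM, whereas for Thbs2 they overlap.

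Thrombospondins bind calcium, matrix proteins and cell surface receptors, and thrombospondin-1 is best known for blocking the growth of blood vessels and for activating latent TGF-β. Thbs1 had 1138, 2934 and 3185 CPM in IFNγ-treated adipogenic libraries 4, 5 and 6, 9976, 13985 and 12563 CPM in osteogenic libraries, and 4023, 6427 and 7220 CPM in untreated adipogenic libraries. No library of one group overlapped with another group, and the order was osteogenic, untreated, treated. Treated adipogenic lay below osteogenic progenitors by a log2 fold change of −2.33 ± 0.42 (edgeR adjusted p = 0.00827), lower in 3 of 3 libraries. Between osteogenic and untreated adipogenic progenitors it was 1.05 ± 0.40, which did not pass (edgeR adjusted p = 0.165). In pairs 4, 5 and 6, treated libraries had 0.283, 0.457 and 0.441 of the untreated level. By group the IFNγ difference was −1.28 ± 0.40 (edgeR adjusted p = 0.178), and with the replicate block Thbs1 fell by 1.38 ± 0.20 on the log2 scale (edgeR adjusted p = 0.01). Its blocked call was lost without number 6 (adjusted p = 0.0585). DESeq2 also called it lower (adjusted p = 0.0261).

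Thbs2 codes for thrombospondin-2, a close relative that shares the trimeric build of thrombospondin-1 and limits vessel growth and matrix turnover. It had 442, 725 and 2128 CPM in IFNγ-treated adipogenic libraries, 2200, 598 and 469 CPM in osteogenic libraries, and 286, 1000.5 and 922 CPM in untreated adipogenic libraries. Variation within groups exceeded that between them: the highest level was 4.82 times the lowest in treated, 4.69 times in osteogenic and 3.50 times in untreated libraries. The median gene had ratios of 1.52, 1.32 and 1.50 in the same order. No comparison passed (edgeR adjusted p = 0.715 to 0.994), and the 95% interval for treated adipogenic against osteogenic progenitors, −1.80 to 1.82 on the log2 scale, leaves room for either direction. Its sign in each comparison turned when 1 library was left out, treated library 6 or osteogenic library 4 among them.

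Thbs3, for the pentameric thrombospondin-3, which is known from growing cartilage and bone in mice, was scarce. It had 8.42, 5.67 and 4.15 CPM in IFNγ-treated adipogenic libraries 4, 5 and 6, 21.9, 37.9 and 36.7 CPM in osteogenic libraries, and 9.57, 6.92 and 4.22 CPM in untreated adipogenic libraries. Osteogenic libraries lay above all adipogenic ones. Osteogenic exceeded untreated adipogenic progenitors by a log2 fold change of 2.22 ± 0.39 (edgeR adjusted p = 0.0208), a call lost without untreated library 5 or 6 or osteogenic library 5 or 6 (adjusted p = 0.0568 to 0.0742). Treated adipogenic lay below osteogenic progenitors by −2.40 ± 0.39 (edgeR adjusted p = 0.00585), and this call held without any 1 library. Treated and untreated pairs were nearly level, at 0.880, 0.820 and 0.983 of the untreated value, with a log2 fold change of −0.18 ± 0.38 (edgeR adjusted p = 0.898). Exons of Thbs3 share 318 bases with Mtx1 on the opposite strand in GENCODE M21, and the strand setting of the counts is not given. Mtx1 itself averaged 37.8 ± 4.69 CPM in treated, 35.0 ± 3.01 CPM in osteogenic and 36.0 ± 5.92 CPM in untreated libraries (SD, n = 3 each).

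Periostin, coded by Postn and named after the periosteum, binds collagen and fibronectin and serves as an integrin ligand. Postn had 159, 45.0 and 50.8 CPM in IFNγ-treated adipogenic libraries 4, 5 and 6, 3928, 2015 and 2912 CPM in osteogenic libraries, and 1698, 458 and 191 CPM in untreated adipogenic libraries. All treated libraries were below all untreated ones, which were below all osteogenic ones, and number 4 was the highest in every group. Untreated libraries spread widely, the highest at 8.87 times the lowest. Treated adipogenic lay below osteogenic progenitors by a log2 fold change of −5.12 ± 0.94 (edgeR adjusted p = 0.00914), which became −5.93 without treated library 4. Osteogenic against untreated adipogenic progenitors gave 1.92 ± 0.81 (edgeR adjusted p = 0.203), and 3.19 without untreated library 4 (adjusted p = 0.0674). IFNγ-treated libraries had 0.0934, 0.0982 and 0.265 of the untreated level in pairs 4, 5 and 6. By group the difference was −3.21 ± 0.86 (edgeR adjusted p = 0.121), and −1.95 without untreated library 4. Of all genes tested, 0.166% had a lower fold change by group than Postn. With the replicate block Postn fell by 2.91 ± 0.39 on the log2 scale (edgeR adjusted p = 0.0081), a call lost without number 4 (adjusted p = 0.0554) or number 5 (adjusted p = 0.0564). DESeq2 called it lower too (adjusted p = 0.000377).

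**Figure D4:**
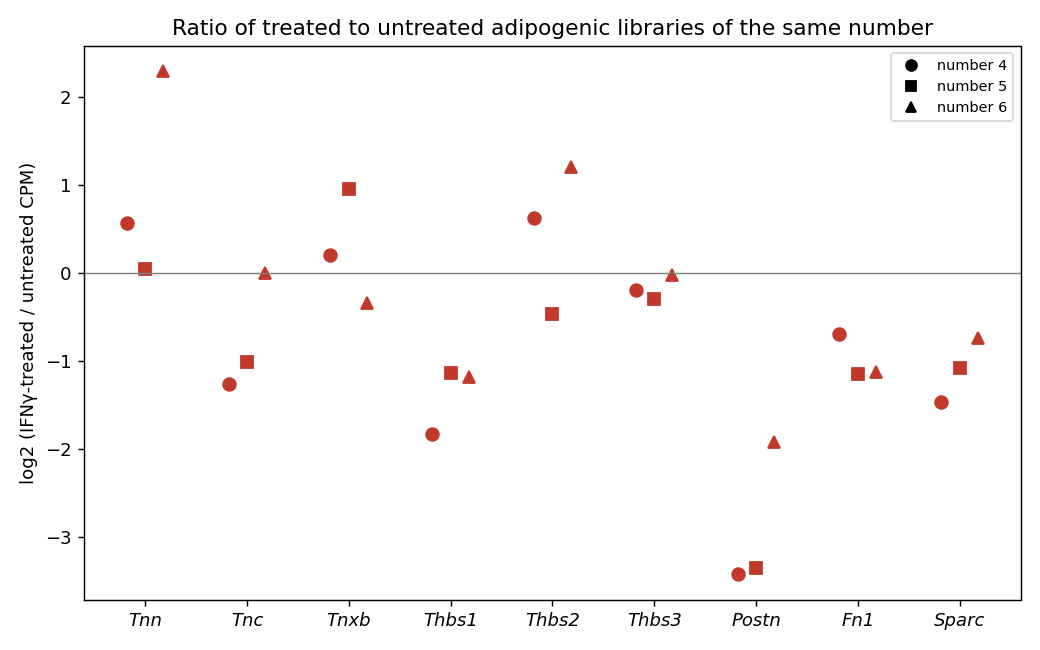
Log2 ratio of IFNγ-treated to untreated CPM (y axis) for the adipogenic libraries of the same number, 3 per gene. Postn lies lowest, at 0.0934 to 0.265 of the untreated level; Thbs1, Fn1 and Sparc are below 0 in all pairs, whereas Tnn, Tnxb and Thbs2 are spread around or above 0.

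Fn1 codes for fibronectin, the main adhesive glycoprotein of fibroblast matrix and a ligand of integrin α5β1. It had 6600, 5839 and 3180 CPM in IFNγ-treated adipogenic libraries 4, 5 and 6, 14456, 16321 and 14940 CPM in osteogenic libraries, and 10665, 12925 and 6922 CPM in untreated adipogenic libraries. The groups did not overlap, and number 6 was the lowest in both adipogenic groups. Treated adipogenic lay below osteogenic progenitors by a log2 fold change of −1.55 ± 0.33 (edgeR adjusted p = 0.0169), a call lost without osteogenic library 5 (adjusted p = 0.0572). The excess of osteogenic over untreated adipogenic progenitors was 0.58 ± 0.32 and did not pass (edgeR adjusted p = 0.318, 95% interval −0.16 to 1.33). Treated libraries had 0.619, 0.452 and 0.459 of the untreated level in the 3 pairs. By group the IFNγ difference was −0.97 ± 0.33 (edgeR adjusted p = 0.209), and with the block Fn1 fell by 0.99 ± 0.15 on the log2 scale (edgeR adjusted p = 0.0107). That call was lost without number 5 (adjusted p = 0.0782) or number 6 (adjusted p = 0.0728). DESeq2 called it lower (adjusted p = 0.0401).

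SPARC, also called osteonectin, binds collagen and calcium and is among the most abundant non-collagen proteins of bone. Sparc had 1106, 1263 and 2874 CPM in IFNγ-treated adipogenic libraries 4, 5 and 6, 6052, 6499 and 7817 CPM in osteogenic libraries, and 3041, 2667 and 4783 CPM in untreated adipogenic libraries. Osteogenic libraries lay above all others and number 6 was the highest in each group, with treated library 6 above untreated library 5. Treated adipogenic lay below osteogenic progenitors by a log2 fold change of −1.96 ± 0.40 (edgeR adjusted p = 0.0154), lower in 3 of 3 libraries. Osteogenic progenitors were above untreated adipogenic ones by 0.96 ± 0.39, which did not pass (edgeR adjusted p = 0.192). In the 3 pairs treated libraries had 0.364, 0.474 and 0.601 of the untreated level. By group the IFNγ difference did not pass (edgeR adjusted p = 0.293, 95% interval −1.91 to −0.10 on the log2 scale), and with the block Sparc fell by 1.09 ± 0.18 on the log2 scale (edgeR adjusted p = 0.0143). The blocked call was lost without number 4 (adjusted p = 0.0711) or number 5 (adjusted p = 0.0847). Summed over the 8 osteoblast markers, of which Col1a1 gave most, levels ran from 1548 to 3437 CPM in treated, 29656 to 44004 CPM in osteogenic and 3160 to 9305 CPM in untreated libraries. Of the 8, those with a mean above 1 CPM numbered 3 in treated, 8 in osteogenic and 5 in untreated libraries. Their part in the results was not tested.

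Profiles over the 9 libraries, each on the log2 CPM scale and centred on its own mean, showed which of the 9 genes ran alongside each other. Thbs1 and Sparc were closest, at a root mean square distance of 0.42 log2 units, followed by Thbs1 and Tnc at 0.66, and Tnn and Tnxb were farthest apart at 5.46. Among 9357 other named genes with at least 10 CPM in some group, Thbs1 was nearest to Palld (0.13), which codes for the actin-binding protein palladin, and to Ccdc80 (0.27). Palld had 78.4, 189 and 195 CPM in treated, 673, 751 and 769 CPM in osteogenic and 279, 445 and 410 CPM in untreated libraries. Tnc was nearest to Sdc1 (0.25), which codes for the proteoglycan syndecan-1, and to Epha2 (0.26). Postn was nearest to the collagen genes Col3a1 (0.54) and Col12a1 (0.95). Fn1 was nearest to Ptprs (0.19) and Ahdc1 (0.20), and Sparc to C1qtnf6 (0.28) and Fkbp10 (0.31), a chaperone of collagen folding. Thbs3 was nearest to Lsp1 (0.26) and Myo7a (0.36) and Thbs2 to Hoxb4 (0.53) and Rrm2 (0.57). The genes nearest to Tnn were Insc (1.12) and Megf6 (1.21), and those nearest to Tnxb were Serpinb9b (0.58) and Tbc1d9 (0.67). Such distances are descriptions over libraries that share groups and, for the adipogenic ones, numbers.

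Receptors of these proteins were followed in a list of 24 genes, 23 of them tested. Itgb5, which codes for the integrin β5 chain that pairs with αv, was the one member that passed in all 3 comparisons. It had 120, 103 and 119 CPM in IFNγ-treated adipogenic libraries, 497, 522 and 460.0 CPM in osteogenic libraries, and 271, 215 and 252 CPM in untreated adipogenic libraries, so the groups were well apart. With IFNγ it fell by 1.11 ± 0.14 on the log2 scale (edgeR adjusted p = 0.00422), the 1 call of the list by group, where 2.26% of all genes passed. None was called higher, and 1 was higher at an unadjusted p under 0.05, 0 by DESeq2 and 0 by limma-voom. Lower were 6 at an unadjusted p under 0.05, 5 by DESeq2 and 1 by limma-voom. For this list and the lists below, shares of all genes by unadjusted p, DESeq2 or limma-voom are not given beside such counts. No excess over all genes can be read from them. Under the replicate block, where 10.8% of all genes passed, 5 of the 23 were called: 4 fell, Itgb5, Itga11, Sdc1 and Cacna2d1, and 1 rose. The latter was Cd47, the gene of a thrombospondin-1 receptor, with a rise of 1.10 ± 0.19 on the log2 scale (edgeR adjusted p = 0.0162). It had 181 ± 59.2 CPM against 89.7 ± 50.1 CPM without IFNγ (SD, n = 3 each). By group the Cd47 libraries overlapped and the gene did not pass (edgeR adjusted p = 0.292). Osteogenic against untreated adipogenic progenitors had 3 of 23 called by edgeR, all higher, where 5.17% of all genes passed: Itgb5 (edgeR adjusted p = 0.00892), Itgb3 at 14.2 ± 4.50 CPM against 3.61 ± 1.15 CPM (adjusted p = 0.0298) and Itga1 at 33.3 ± 14.8 CPM against 9.55 ± 2.81 CPM (adjusted p = 0.0331). None was called lower by edgeR, though 3 were lower at an unadjusted p under 0.05, and DESeq2 called 4 higher and 1 lower and limma-voom 3 higher and 0 lower. The Itgb3 call was lost without untreated library 4, 5 or 6 or osteogenic library 4 or 5 (adjusted p up to 0.103). The Itga1 call was lost without untreated library 5 or 6, osteogenic library 5 or 6 or treated library 5 (adjusted p up to 0.107), and with only the 6 libraries compared (adjusted p = 0.058). Treated adipogenic against osteogenic progenitors had 6 of 23 called, where 16.7% of all genes passed: 5 were lower and 1 higher, Itga2, at 2.03 ± 0.886 CPM in treated and 0.219 ± 0.194 CPM in osteogenic libraries (edgeR adjusted p = 0.0381), named after its values were seen. The 5 lower included Itgb5 (edgeR adjusted p = 6.07e-05), Itgb3 (0.00166) and Itga1 (0.00209). The median log2 fold change of the list was −0.25 with IFNγ, 0.21 in osteogenic against untreated and −0.51 in treated against osteogenic progenitors, beside −0.02, −0.02 and 0.03 over all genes.

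Of 17 tested genes in a list of 23 other matricellular genes, none passed edgeR's test by group with IFNγ, although 4 had an unadjusted p under 0.05 and DESeq2 called 4, all lower, and limma-voom 0. With the replicate block 6 of 17 were called, where 10.8% of all genes passed: 5 fell and 1 rose. Ctgf and Cyr61, both of the CCN family of matricellular regulators, fell by 2.33 ± 0.19 and by 2.08 ± 0.38 on the log2 scale (edgeR adjusted p = 0.00167 and 0.0214), Wisp1 of the same family by 0.99 ± 0.20 (0.0263), and its relative Wisp2 rose by 0.95 ± 0.19 (0.0293). These genes of the blocked fit were named after their values were seen, and without number 4, 5 or 6 it called 2, 1 and 2 of the list. The other members that fell were Sparcl1 and Fstl1. In osteogenic against untreated adipogenic progenitors none was called by edgeR, with 5 genes with an unadjusted p under 0.05, 4 of them higher, 2 higher and 2 lower by DESeq2 and 0 by limma-voom. Treated adipogenic against osteogenic progenitors had 5 of 17 called by edgeR, all lower, where 16.7% of all genes passed. None was called higher, 1 was higher at an unadjusted p under 0.05, DESeq2 called 1 higher and 9 lower, and limma-voom 0 higher and 6 lower. The lowest p was that of Wisp1 with 93.5 ± 27.2 CPM in treated and 269.9 ± 43.3 CPM in osteogenic libraries (edgeR adjusted p = 0.00393). Spock2 (edgeR adjusted p = 0.0131) lost its call without treated library 6 (adjusted p = 0.0548), and Comp (0.0192), the thrombospondin of cartilage, lost its call without treated library 5 or 6 or osteogenic library 4 or 5 (up to 0.0626). The median log2 fold change of this list was −0.67 with IFNγ, 0.51 in osteogenic against untreated and −1.41 in treated against osteogenic progenitors, beside −0.02, −0.02 and 0.03 over all genes.

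Microfibril and adhesive glycoproteins made a list of 22 genes, 18 of them tested. By group none passed with IFNγ, while 6 had an unadjusted p under 0.05, all lower, DESeq2 called 3 lower and limma-voom 0, and with the block 3 of 18 fell, Fbn2, Matn2 and Ltbp3, where 10.8% of all genes passed. Fbn2, the gene of fibrillin-2, had 3.47 ± 4.29 CPM in treated and 29.3 ± 15.1 CPM in untreated adipogenic libraries (edgeR adjusted p = 0.0176 with the block). In osteogenic against untreated adipogenic progenitors 3 of 18 were called by edgeR, all higher, where 5.17% of all genes passed. None was called lower by edgeR, though 4 were lower at an unadjusted p under 0.05, and DESeq2 called 3 higher and 1 lower and limma-voom 2 higher and 1 lower. The 3 were Emilin1 at 446 ± 126 CPM against 133 ± 30.7 CPM (edgeR adjusted p = 0.0279), Ecm2 (0.0292) and Fndc1 (0.0421). The calls of Emilin1 and Ecm2 were lost without any 1 of the 6 libraries compared (adjusted p up to 0.102), and that of Fndc1 in all fits that left out 1 library (up to 0.11), with limma-voom (0.0864), with no filter (0.0552) and with only the 6 libraries (0.0767). Without osteogenic library 5 the log2 fold change of Fndc1 was 3.68, against 5.62 with it. Osteogenic libraries 4, 5 and 6 had 7.53, 73.4 and 7.82 CPM of Fndc1, and no DESeq2 result for this gene entered the alternatives. Treated adipogenic against osteogenic progenitors had 6 of 18 called by edgeR, all lower, where 16.7% of all genes passed. None was higher at an unadjusted p under 0.05, and DESeq2 and limma-voom called 0 higher and 7 lower each. Emilin1 came first by p (edgeR adjusted p = 0.00365), then Ecm2 (0.00953) and Fndc1 (0.0116), and the Fndc1 call was lost without treated library 6 (0.0502). Medians of the list were −0.64 with IFNγ, 0.05 in osteogenic against untreated and −0.52 in treated against osteogenic progenitors, on the log2 scale, beside −0.02, −0.02 and 0.03 over all genes.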

How the data were processed

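Poly(A) RNA of 9 libraries was made with a directional kit and sequenced as single reads, pooled over all lanes, per the labels' protocols. The authors deposited whole read counts per Ensembl gene, not normalized, with exonic length. CASAVA 1.8.0, bedtools 2.11 and build mm9 are named in the submitters' processing notes. For the aligner, the counter and the strand setting: not given in the sources used here. No 2 replicates agreed within sampling noise.

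In edgeR 4.0.16 under R 4.3.3, filterByExpr by group left 15098 genes, scaled by TMM, in a robust quasi-likelihood fit with a term for group over all 9 libraries. F tests were two-sided with Benjamini-Hochberg adjustment at 0.05, and the SE is the log2 fold change over the square root of F. The fit by group was tested on simulated data without shared deviations of same-numbered libraries, and the blocked fit was not. DESeq2 1.42.0, limma 3.58.1 (voom), other scalings, filters and left-out libraries were alternatives. The members, lists and tests were chosen with earlier results of these data known. Up to 3 called genes per list and comparison with at least 1 CPM, and the 2 nearest profiles per member, were named. List genes Spock1 and Wisp3 had no match. An exact permutation test of 3 against 3 cannot go below 0.1.

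The pairing rests on the data: deviations of same-numbered treated and untreated adipogenic libraries correlated at 0.754 to 0.760. Those of different numbers correlated at −0.458 to −0.263. Deviations from a group mean cancel within the group, so these negative values follow from the positive ones and are no separate evidence. Osteogenic libraries correlated with same-numbered adipogenic ones at −0.0547 to 0.0494, so they were not paired. The block has 1 term per adipogenic number, 1 for the osteogenic group and 1 for IFNγ. Intervals of pooled counts cover counting error alone, as PCR copies were not marked by molecular identifiers.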

Additional observations from a re-analysis of the deposited data

How the results depend on the processing

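The 9 genes gave 504 log2 fold changes under 22 alternatives. Of these 459 kept their direction and side of the threshold, 24 passed only there, 11 no longer passed and 10 turned sign, none of the 10 a call. For IFNγ-treated against untreated adipogenic progenitors the calls among the 9 genes numbered 3 with DESeq2, 2 with a replicate block over all 9 libraries, and 4 both with the block on the number of the adipogenic libraries and with the block on only their 6 libraries, against 0 by group. Leaving out 1 library gave 0 by group, and leaving out 1 number under the block gave 1 to 3. The block changed no other call of the 9 genes than those given in the text. Over all genes the calls were 341 by group, 1043 with DESeq2, 178 with only the 6 libraries, 1631 with the block and 2446 with the block on 6 libraries, and ran from 194 to 278 without 1 library and from 346 to 470 without 1 number under the block. For osteogenic against untreated adipogenic progenitors the replicate block over all 9 libraries, where the numbers do not pair, called 4 of the 9 genes (Thbs1 and Postn added), and 1 to 2 were called without 1 library. All-gene calls there were 780, 2119 with DESeq2, 1244 with that block and 159 to 771 without 1 library. For treated adipogenic against osteogenic progenitors 6 to 7 of the 9 were called without 1 library, and all-gene calls were 2525, 3821 with DESeq2 and 1312 to 2474 without 1 library.

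Turned signs, as log2 fold changes, were those of Thbs3 with IFNγ without untreated library 4 (0.13) or treated library 6 (0.03), of Tnxb with IFNγ under the block without number 5 (−0.063), and of Thbs2 with IFNγ without treated library 6 (−0.32) and in osteogenic against untreated without osteogenic library 4 (−0.47). Thbs2 in treated against osteogenic turned with upper-quartile scaling (−0.074), with the replicate block over all 9 libraries (−0.21), and without treated library 6 (−0.89) or osteogenic library 5 (−0.29) or 6 (−0.35). Without 1 library Thbs2 otherwise reached 0.96 with IFNγ, 0.93 in osteogenic against untreated and 1.05 in treated against osteogenic. The cause was not tested. Over all alternatives the list calls, in the order matricellular, receptors, glycoproteins, ran from 0 to 8, 1 to 10 and 0 to 7 with IFNγ, from 0 to 4, 1 to 5 and 0 to 4 for osteogenic against untreated, and from 1 to 10, 3 to 12 and 3 to 7 for treated against osteogenic. Scaling moved the median of all genes by less than 0.1. Depth limits Tnxb in osteogenic libraries, with 2 to 22 counts.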
